A study of Mus musculus with 6 samples.

Results

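*Ly6c1* and *Ccr2* are 2 of the 8191 genes in a table of mRNA levels in splenic myeloid-derived suppressor cells (MDSCs) of aged mice. They were picked by their symbols as surface genes of inflammatory monocytes, with their values in these samples known, so their levels are given as a description without a test. MDSCs were taken without culture from the spleens of BALB/c-background mice aged 18 to 24 months of the genotypes WT, Tnfr1-/- and Tnfr2-/-, 2 samples each. WT mice carry both receptors of the cytokine TNF, Tnfr1-/- mice lack TNFR1 in all cells, and Tnfr2-/- mice lack TNFR2 in all cells. No treatment is named for any sample, and each pooled the MDSCs of 5 mice in 1 of 2 independent experiments, so a sample is a pool and not an animal. The cells were enriched with an MDSC isolation kit and checked by flow cytometry for CD45, CD11b and Gr1. The design asks how the absence of either TNF receptor changes gene expression in aged MDSCs.

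Inflammatory monocytes are short-lived blood cells that carry much Ly6C and the chemokine receptor CCR2 on their surface. CCR2 binds the chemokines CCL2, CCL7 and CCL12, and signalling through it lets these monocytes leave the bone marrow and enter inflamed tissue, where they can become macrophages or dendritic cells. Ly6C is a small protein held on the outer membrane by a lipid anchor, and high Ly6C without Ly6G is how monocytic MDSCs are told from granulocytic MDSCs, which carry Ly6G and less Ly6C. The antibody Gr1, which was part of the purity check, binds both Ly6G and Ly6C.

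Ly6C is made from a pair of neighbouring genes that are nearly the same, and their coding sequences are shown because reads of 50 bases were counted on them. *Ly6c1* lies on the minus strand of chromosome 15 at chr15:75044018-75048830 of GRCm38 (mm10), in the GENCODE M21 annotation, and *Ly6c2* on the same strand at chr15:75108158-75111970. The coding sequence that most annotated transcripts of each gene carry has 396 bases in 3 exons. Positions 1 to 300 of each are given 5′ to 3′ on the coding strand, and capitals mark the 7 bases in this stretch at which they differ.
*Ly6c1*: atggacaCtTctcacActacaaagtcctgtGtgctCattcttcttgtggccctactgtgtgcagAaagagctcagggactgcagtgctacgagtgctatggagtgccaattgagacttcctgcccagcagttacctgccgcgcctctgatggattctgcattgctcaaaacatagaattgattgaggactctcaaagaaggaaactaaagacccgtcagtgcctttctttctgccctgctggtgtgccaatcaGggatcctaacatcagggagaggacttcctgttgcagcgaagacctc
*Ly6c2*: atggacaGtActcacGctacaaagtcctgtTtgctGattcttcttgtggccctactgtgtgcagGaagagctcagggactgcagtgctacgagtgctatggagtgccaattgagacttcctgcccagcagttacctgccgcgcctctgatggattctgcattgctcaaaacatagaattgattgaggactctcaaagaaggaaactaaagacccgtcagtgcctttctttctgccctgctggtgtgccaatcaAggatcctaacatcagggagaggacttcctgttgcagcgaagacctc
Over their whole length the coding sequences were the same at 387 of 396 positions (97.7%) and differed at 9. Of the 347 windows of 50 bases in the *Ly6c1* coding sequence, 162 (46.7%) also occurred in transcripts of *Ly6c2*. Over all annotated *Ly6c1* transcripts, 578 of 1764 windows (32.8%) occurred in another gene, 379 of them in *Ly6c2* and 195 in *Ly6a*. These sequences and windows are those of the reference genome, and the sequences of the BALB/c-background mice were not examined. *Ly6c2* was not among the 8191 genes in the table. How reads that match both genes were counted is not given in the sources used here. The values of *Ly6c1* may thus hold reads of *Ly6c2*. *Ccr2*, on the plus strand of chromosome 9 at chr9:124101950-124113557, is less affected, since 129 of its 6758 windows (1.91%) occurred in another gene.

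Several facts of the whole table touch each value below. Levels are in FPKM, a fragment count divided by transcript length and by the size of the library, and the depth behind them is unknown. The authors kept only genes with a p-value of at most 0.05 for a difference over the 3 genotypes. Every gene in the table, *Ly6c1* and *Ccr2* included, had thus been picked for a difference between these same samples. The limma p-values and the counts of genes called different below come from this preselected set and the same samples. They overstate the evidence and serve as a description. The sum over the table was 344714 and 346870 FPKM for WT and lay between 133604 and 155248 FPKM for the knockouts, and values of WT carry at most 10 digits against at most 6 for the others. No batch is named in the labels, and a difference in processing and a difference in genotype cannot be told apart here. *Tnfrsf1b*, the gene of TNFR2, stood at 111.8 and 114.9 FPKM in WT, 47.8 and 69.6 FPKM in Tnfr1-/- and 11.3 and 14.3 FPKM in Tnfr2-/- MDSCs, lowest in the samples labelled as its knockout. No value of *Tnfrsf1a*, which codes for TNFR1, was analysed here.

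*Ly6c1* was almost absent from the WT samples and among the most abundant listed genes in both knockouts. It stood at 0.159 and 0.0638 FPKM in the 2 WT samples. The level was 95.8 and 99.6 FPKM in Tnfr1-/- and 121 and 178 FPKM in Tnfr2-/- MDSCs. No WT value came near a knockout value, and the 2 Tnfr2-/- samples lay above the 2 Tnfr1-/- samples. Of all listed genes, 21.1% had both Tnfr2-/- samples above both WT samples, 21.7% had both Tnfr1-/- samples above them, and 34.9% had both Tnfr2-/- samples above both Tnfr1-/- samples, and nothing is read from this for *Ly6c1*, which was chosen with these values known. Among the 8191 listed genes, *Ly6c1* was at percentile 7.36 and 4.63 in the WT samples, 97.6 and 97.6 in Tnfr1-/-, and 97.9 and 98.6 in Tnfr2-/- MDSCs. In bulk samples, fewer cells of a type and less RNA per cell cannot be told apart.

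The group means of *Ly6c1* were 0.112 ± 0.0675 FPKM for WT, 97.7 ± 2.65 for Tnfr1-/- and 149.8 ± 40.1 for Tnfr2-/- MDSCs (SD, n = 2). The difference from WT on the scale of log2(FPKM + 1) was 7.06 in Tnfr2-/- and 6.47 in Tnfr1-/- MDSCs, with an SE of 0.19 for each in the model of all samples. Without the added 1, the ratio of the means to WT was 1340 in Tnfr2-/- and 876 in Tnfr1-/- MDSCs, and these ratios rest on 2 WT values near 0 whose read depth is unknown. Between the knockouts the log2 difference was 0.59 (SE 0.19, ratio of means 1.53). The gap between the highest Tnfr1-/- and the lowest Tnfr2-/- sample was smaller than the distance between the 2 Tnfr2-/- samples, so these neighbours in the order of levels did not differ beyond their spread.

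*Ccr2* was present in every sample and followed the order WT, Tnfr1-/-, Tnfr2-/-. The WT samples held 14.995 and 14.90 FPKM. The Tnfr1-/- samples held 80.0 and 101 FPKM and the Tnfr2-/- samples 199 and 229 FPKM. The groups did not overlap, and each gap between neighbouring groups was larger than the distance between the samples within either group. *Ccr2* was at percentile 63.1 and 63.2 of the listed genes in WT, 96.9 and 97.6 in Tnfr1-/- and 98.9 and 99.0 in Tnfr2-/- MDSCs.

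The means of *Ccr2* were 14.95 ± 0.0652 FPKM for WT, 90.5 ± 14.8 for Tnfr1-/- and 214 ± 21.6 for Tnfr2-/- MDSCs (SD, n = 2). The difference from WT on the log2(FPKM + 1) scale was 3.75 in Tnfr2-/- and 2.51 in Tnfr1-/- MDSCs (SE 0.14 each), with ratios of means of 14.3 and 6.05. Tnfr2-/- exceeded Tnfr1-/- MDSCs by 1.24 on the same scale (SE 0.14), or 2.37-fold in the means. An order of WT below Tnfr1-/- below Tnfr2-/- without any overlap, which both genes had, was seen in 396 of the 8191 listed genes (4.83%).

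**Figure D1:**
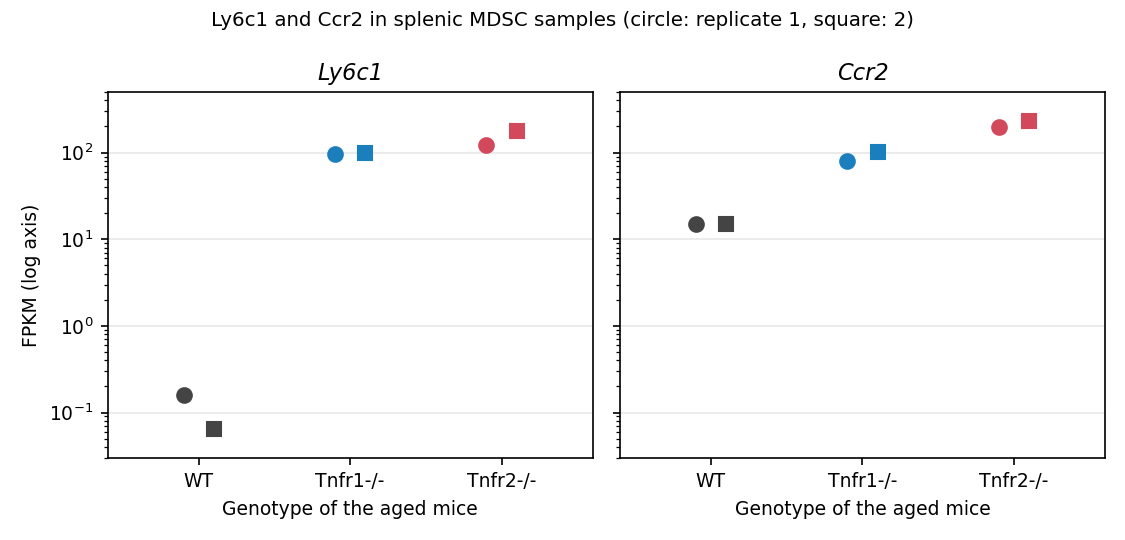
FPKM of *Ly6c1* (left) and *Ccr2* (right) in each sample, on a shared log axis, by genotype, with a circle for replicate 1 and a square for replicate 2. *Ly6c1* goes from 0.159 and 0.0638 FPKM in WT to 95.8 FPKM or more in the knockouts, and *Ccr2* goes from 14.995 and 14.90 FPKM in WT to 199 and 229 FPKM in Tnfr2-/- MDSCs.

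The listed genes as a whole were lower in the knockouts, and the levels of *Ly6c1* and *Ccr2* were opposite to that shift. The median log2 difference of all listed genes was −0.74 in Tnfr2-/- and −0.83 in Tnfr1-/- MDSCs against WT, and 0.06 between the knockouts. When the samples were scaled by median-ratio size factors, these medians became −0.03, −0.03 and −0.02. On the scaled values *Ly6c1* differed from WT by 7.38 in Tnfr2-/- and 6.94 in Tnfr1-/- MDSCs, and *Ccr2* by 4.68 and 3.59. Between the knockouts the scaled differences were 0.44 for *Ly6c1* and 1.09 for *Ccr2*.

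Ratios between genes of the same sample, which no scaling of a whole sample can alter, also set WT apart. The level of *Ccr2* was 94.1 and 234 times that of *Ly6c1* in the WT samples, where *Ly6c1* was near 0. That ratio was 0.835 and 1.01 in Tnfr1-/- and 1.64 and 1.29 in Tnfr2-/- MDSCs. *Ccr2* and *Ly6c1* were thus at about the same level per length in the knockouts but not in WT. Against *Csf1r*, the gene of the receptor on which monocytes and macrophages depend for survival, *Ccr2* stood at 0.0667 and 0.0628 in WT, 1.12 and 1.09 in Tnfr1-/- and 1.45 and 1.34 in Tnfr2-/- MDSCs. The direction depended on the gene compared. Against *Csf3r*, the gene of the G-CSF receptor, *Ccr2* stood at 1.5 and 1.85 in WT and between 0.222 and 0.802 in the knockouts. Against the monocyte gene *F13a1* it stood at 3.26 and 3.05 in WT and between 1.57 and 2.27 in the knockouts.

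Of the 13 protein-coding genes annotated within 250 kb of *Ly6c1*, 2 were in the table, *Ly6a* at 46.0 kb and *Ly6i* at 60.6 kb. Both were highest in WT without overlap, as were 77.2% of all listed genes against Tnfr2-/- and 77.3% against Tnfr1-/- MDSCs, so nothing particular to these neighbours is read from it. *Ly6a*, which codes for the stem cell antigen Sca-1, stood at 94.6 and 100.1 FPKM in WT, 22.7 and 17.2 FPKM in Tnfr1-/- and 12.97 and 5.29 FPKM in Tnfr2-/- MDSCs. It fell by 3.39 in Tnfr2-/- MDSCs on the log2 scale (SE 0.39, adjusted p = 0.000873 in limma). *Ly6i* stood at 13.6 and 12.4 FPKM in WT and between 0.223 and 3.84 FPKM in the 4 knockout samples. *Ly6i* was called lower in both knockouts. The call in Tnfr2-/- MDSCs was lost without WT replicate 1 or 2, and that in Tnfr1-/- MDSCs without WT replicate 1 or Tnfr1-/- replicate 1. With median-ratio scaling neither call of *Ly6i* held (limma adjusted p = 0.0804 in Tnfr2-/- and 0.0512 in Tnfr1-/- MDSCs). *Ly6a* was then called lower in Tnfr2-/- but not in Tnfr1-/- MDSCs (limma adjusted p = 0.0701). The ratio of *Ly6c1* to *Ly6a* was 0.00168 and 0.000637 in WT, 4.21 and 5.79 in Tnfr1-/- and 9.36 and 33.7 in Tnfr2-/- MDSCs.

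Of the Ly6 family, small proteins with the fold that Ly6C shares with the urokinase receptor and CD59, 7 of 33 genes other than *Ly6c1* were in the table. A gene is called different here where limma, fitted over all listed genes and all 6 samples, gave a Benjamini-Hochberg adjusted p under 0.05 and a fold change over 1.5. In Tnfr2-/- against WT this rule called 70.7% of all listed genes, 13.6% higher and 57.1% lower, and of the Ly6 family 1 gene higher and 4 lower. In Tnfr1-/- against WT it called 74.8% of all listed genes, 14.1% higher and 60.7% lower, and again 1 family gene higher and 4 lower. The family genes that fell were *Ly6a*, *Ly6i*, *Cd59a*, the gene of an inhibitor of complement, and *Plaur*, that of the urokinase receptor. With median-ratio scaling, which called 42.8% of all listed genes in Tnfr2-/- (21.8% higher, 21% lower) and 45.4% in Tnfr1-/- MDSCs (23.3% higher, 22.1% lower) against WT, 3 family genes were lower in Tnfr2-/- and 1 in Tnfr1-/- MDSCs. *Lypd6b*, named after its values were seen, was the 1 that rose, from at most 0.0357 FPKM in WT to between 0.556 and 1.13 FPKM in the knockouts.

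Among the protein-coding genes within 250 kb of *Ccr2* on chromosome 9, *Ccr3*, the eotaxin receptor of eosinophils, lies at 70.3 kb. It was at 0.139 and 0.0928 FPKM in WT, 8.82 and 10.7 FPKM in Tnfr1-/- and 9.86 and 4.60 FPKM in Tnfr2-/- MDSCs. The knockout samples overlapped, and all 4 lay above both WT samples. *Ccr3* rose by 2.81 in Tnfr2-/- MDSCs on the log2 scale (SE 0.33, limma adjusted p = 0.000878).

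The chemokine genes that code for the ligands of CCR2 ran against the receptor gene. All 3 were in the table, and all 3 were called lower in both knockouts than in WT, without overlap. Most listed genes also lay below WT without overlap (77.2% and 77.3%, as above), and 57.1% and 60.7% were called lower in Tnfr2-/- and Tnfr1-/- MDSCs. With most listed genes lower, nothing particular to the 3 ligand genes is read from their direction. *Ccl2*, the main ligand, stood at 82.6 and 74.6 FPKM in WT, 0.749 and 1.48 FPKM in Tnfr1-/- and 1.51 and 14.6 FPKM in Tnfr2-/- MDSCs. The 2 Tnfr2-/- samples differed widely for *Ccl2*, and the sample at 14.6 FPKM was still below both WT samples. *Ccl2* fell by 3.67 in Tnfr2-/- (SE 0.86, limma adjusted p = 0.01) and fell by 5.25 in Tnfr1-/- MDSCs (SE 0.86, limma adjusted p = 0.00257) on the log2 scale. The call for Tnfr2-/- was lost without WT replicate 1 or 2 (limma adjusted p = 0.0604 and 0.0552).

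*Ccl7*, which codes for another ligand of CCR2, stood at 11.6 and 10.04 FPKM in WT, 0.0605 FPKM in 1 Tnfr1-/- sample, and was listed at 0 in the other 3 knockout samples. *Ccl12* stood at 7.34 and 6.54 FPKM in WT. It was at 0.107 FPKM in 1 Tnfr1-/- and 1.28 FPKM in 1 Tnfr2-/- sample and listed at 0 in the other 2. In Tnfr2-/- MDSCs *Ccl7* fell by 3.56 and *Ccl12* fell by 2.39 against WT on the log2 scale (SE 0.08 and 0.39, limma adjusted p = 9.89e-06 and 0.00276). Between the knockouts limma called none of the 3 ligand genes different, and 0 had an unadjusted p under 0.05.

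**Figure D2:**
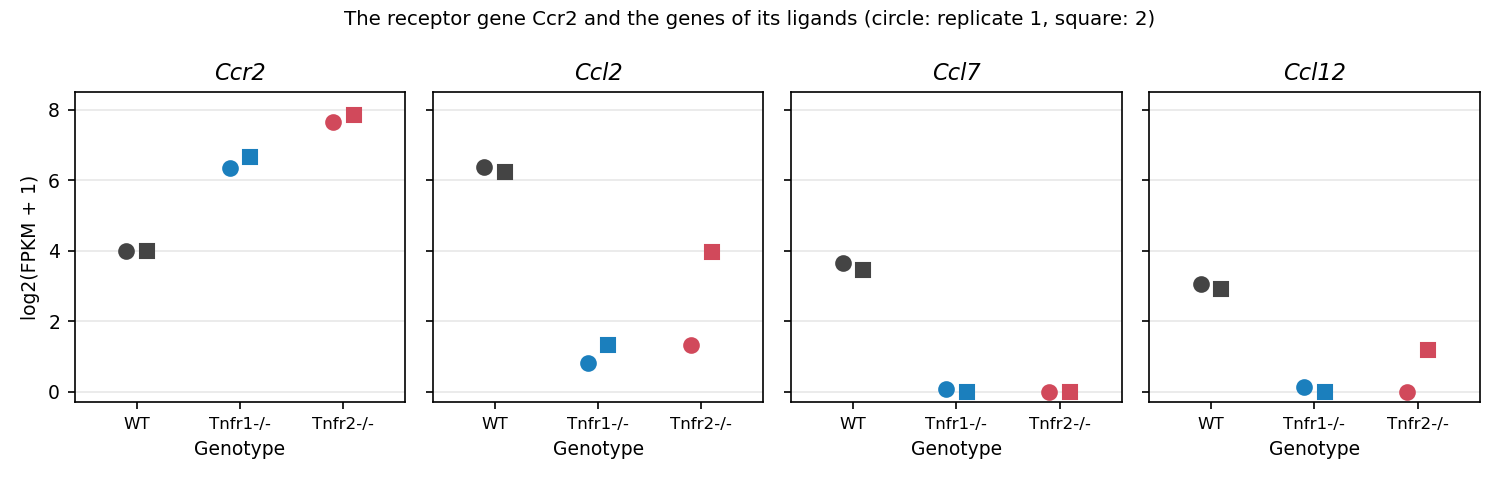
Level of *Ccr2* and of the 3 genes for its ligands, *Ccl2*, *Ccl7* and *Ccl12*, as log2(FPKM + 1) in each of 6 samples by genotype, with a circle for replicate 1 and a square for replicate 2. The receptor gene is lowest in WT, at 14.995 and 14.90 FPKM, and each ligand gene is highest there.

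Other chemokine receptors mostly rose in the knockouts. Beside *Ccr2*, 9 of 23 were in the table. Of these, 6 were higher and 3 lower in Tnfr2-/- than in WT MDSCs, and 6 higher and 2 lower in Tnfr1-/- MDSCs. Over all listed genes 13.6% were called higher and 57.1% lower in Tnfr2-/-, and 14.1% and 60.7% in Tnfr1-/- MDSCs. *Cx3cr1*, the fractalkine receptor of nonclassical monocytes, stood at 0.603 and 0.388 FPKM in WT, 8.63 and 9.88 FPKM in Tnfr1-/- and 25.7 and 45.9 FPKM in Tnfr2-/- MDSCs. It had the same order of groups as *Ccr2* without overlap, and rose by 4.57 in Tnfr2-/- MDSCs on the log2 scale (SE 0.28, limma adjusted p = 0.000128). The ratio of *Ccr2* to *Cx3cr1* was 24.9 and 38.4 in WT, 9.27 and 10.2 in Tnfr1-/- and 7.73 and 5.0 in Tnfr2-/- MDSCs. *Cxcr4*, which holds immature cells in the bone marrow, rose from 16.7 and 16.5 FPKM in WT to 115 and 118 FPKM in Tnfr1-/- and 125 and 74.8 FPKM in Tnfr2-/- MDSCs.

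Between the knockouts, where 1.45% of all listed genes were called different, 0.842% higher and 0.61% lower in Tnfr2-/-, 1 of the 9 receptors was higher and 3 were lower in Tnfr2-/- MDSCs. *Ccr10*, a receptor for skin and mucosal chemokines, stood at 1.17 and 0.686 FPKM in Tnfr1-/- and 4.203 and 3.10 FPKM in Tnfr2-/- MDSCs. *Cxcr3*, a receptor of activated T cells, stood at 15.2 and 23.5 FPKM in Tnfr1-/- and 5.64 and 5.14 FPKM in Tnfr2-/- MDSCs. *Cxcr5* and *Ccr7*, receptors that guide lymphocytes to follicles and T cell zones, were the other 2 that were lower, and *Cxcr5* was named after its values were seen. With median-ratio scaling, which called 2.54% of all listed genes between the knockouts (1.09% higher, 1.45% lower), 2 receptors were higher and 3 lower in Tnfr2-/- MDSCs. The unscaled calls of *Ccr10*, *Cxcr3*, *Cxcr5* and *Ccr7* were each lost in 5 of 6 limma fits with a sample left out, all but that without Tnfr2-/- replicate 1.

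*Ly6c1* and *Ccr2* belong to a list of 28 inflammatory monocyte genes, and 16 of the remaining 26 were in the table. These 16 did not move together. In Tnfr2-/- against WT, 8 were higher and 7 lower, with a median log2 difference of 0.16. In Tnfr1-/- against WT, 7 were higher and 8 lower, with a median of −0.56. The medians of all listed genes in these comparisons were −0.74 and −0.83. Of all listed genes 13.6% were called higher and 57.1% lower in Tnfr2-/-, and 14.1% and 60.7% in Tnfr1-/- MDSCs. With median-ratio scaling 8 of the 16 were higher and 3 lower in Tnfr2-/- MDSCs, and 8 higher and 5 lower in Tnfr1-/- MDSCs. The scaled shares of all listed genes were 21.8% higher and 21% lower, and 23.3% and 22.1%. The summed level of the 16 genes, in which *Lyz2* weighs most, was 31600 and 33700 FPKM in WT, 6020 and 4830 FPKM in Tnfr1-/- and 9310 and 7720 FPKM in Tnfr2-/- MDSCs.

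Among the monocyte genes that rose was *Hp*, which codes for the haemoglobin-binding haptoglobin. It stood at 18.1 and 17.4 FPKM in WT, 640.3 and 624 FPKM in Tnfr1-/- and 715 and 424 FPKM in Tnfr2-/- MDSCs, a log2 difference of 4.88 for Tnfr2-/- against WT (SE 0.26, limma adjusted p = 7.9e-05). The knockouts overlapped, unlike for *Ccr2*, and neutrophils also express *Hp*.

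*Fn1*, the gene of fibronectin, and *F13a1*, the gene of a coagulation factor subunit that classical monocytes hold, followed the order of *Ccr2*. *Fn1* stood at 2.37 and 3.51 FPKM in WT, 52.4 and 52.4 FPKM in Tnfr1-/- and 105 and 100.5 FPKM in Tnfr2-/- MDSCs. *F13a1* stood at 4.61 and 4.89 FPKM in WT, 50.9 and 59.3 FPKM in Tnfr1-/- and 104 and 100.8 FPKM in Tnfr2-/- MDSCs. In both genes the 3 groups did not overlap. The log2 difference between Tnfr2-/- and WT was 4.73 for *Fn1* and 4.17 for *F13a1* (SE 0.15 and 0.09, limma adjusted p = 1.93e-05 and 9.89e-06). The same order without overlap was found in 5 of the 16 genes (31.2%), against 4.83% of all listed genes, and the other 3, named after their values were seen, were *Ms4a6c*, *Emb* and *Clec4a1*.

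Other genes of the list fell in both knockouts. *Ccl9*, a chemokine of myeloid cells, stood at 498 and 480.0 FPKM in WT, 27.4 and 29.3 FPKM in Tnfr1-/- and 71.8 and 88.2 FPKM in Tnfr2-/- MDSCs. *S100a4*, a calcium-binding protein of motile cells, stood at 397 and 359 FPKM in WT, 69.8 and 67.0 FPKM in Tnfr1-/- and 137 and 179 FPKM in Tnfr2-/- MDSCs. For *Ccl9* and *S100a4*, WT was highest and the Tnfr2-/- samples lay above the Tnfr1-/- samples. After median-ratio scaling *S100a4* was no longer called different between Tnfr2-/- and WT, at −0.27 on the log2 scale against −1.26. *Chil3*, a chitinase-like protein made by monocytes and macrophages and named after its values were seen, stood at 2877 and 3066 FPKM in WT and between 116 and 375 FPKM in the knockouts. *Csf1r*, also named after its values were seen, was lower in Tnfr2-/- than in WT MDSCs by 0.59 (SE 0.17, limma adjusted p = 0.0222) and stood 0.40 above WT, without a call, after scaling. The call for *Csf1r* was lost without WT replicate 1 (limma adjusted p = 0.0826), WT replicate 2 (0.11) or Tnfr2-/- replicate 1 (0.085).

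**Figure D3:**
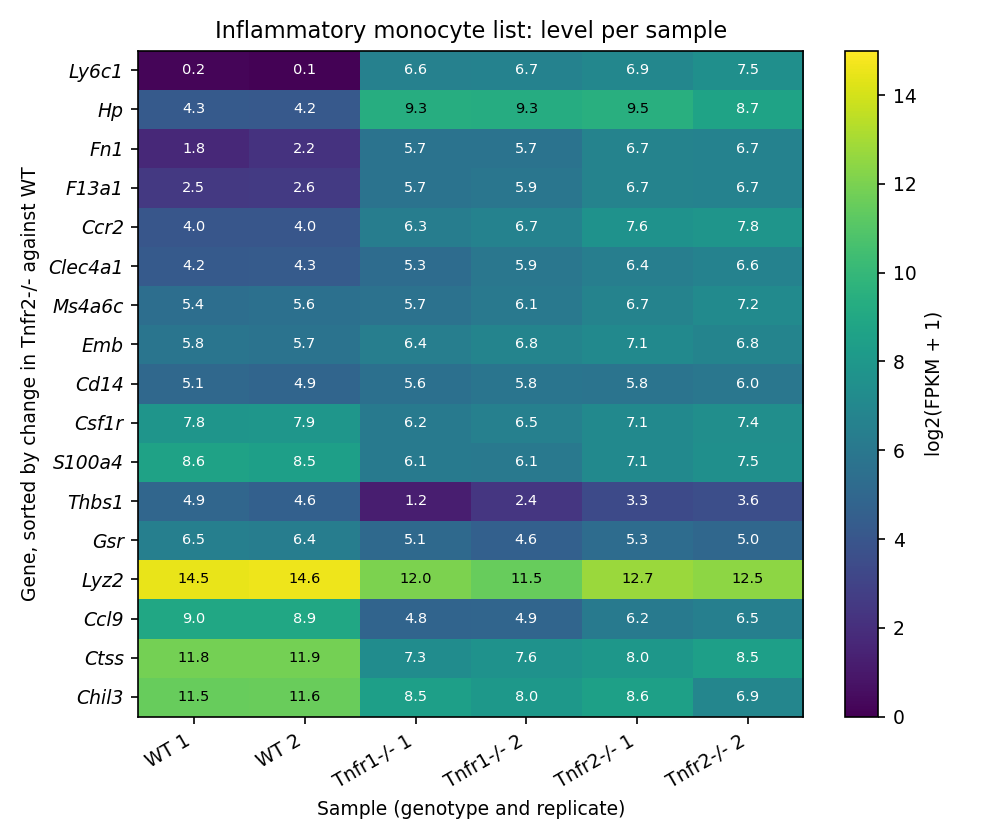
Level of *Ly6c1*, *Ccr2* and 15 of the 16 other listed inflammatory monocyte genes as log2(FPKM + 1), written and coloured in each cell, with 1 row per gene and 1 column per sample. Rows are sorted by the difference between Tnfr2-/- and WT, with *Ly6c1* (7.06) at the top, and the genes at the bottom are brightest in the 2 WT columns.

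Between the knockouts, 3 of the 16 genes were higher in Tnfr2-/- MDSCs and none was lower, beside 0.842% and 0.61% of all listed genes. The 3 genes were *Ccl9*, with a log2 difference of 1.46 (SE 0.12, limma adjusted p = 0.0255), *S100a4*, with 1.19 (SE 0.15, adjusted p = 0.0397), and *F13a1*, with 0.88 (SE 0.09, adjusted p = 0.0367). The median log2 difference of the 16 genes was 0.85, against 0.06 over all listed genes, and 13 were positive and 3 negative. These calls depended on single samples and on the model. Without WT replicate 1, WT replicate 2, Tnfr1-/- replicate 1, Tnfr1-/- replicate 2 or Tnfr2-/- replicate 2 the limma count was 0, without Tnfr2-/- replicate 1 it was 7, and in a fit of the 4 knockout samples alone it was 0, with 8 of the 16 genes at an unadjusted p under 0.05.

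Nonclassical monocytes, the patrolling cells into which inflammatory monocytes can turn with loss of Ly6C and CCR2, were represented by 7 of 16 list genes. Of these, 4 were higher and 3 lower in Tnfr2-/- than in WT MDSCs, and 3 were higher and 3 lower in Tnfr1-/- MDSCs. The shares of all listed genes were 13.6% higher and 57.1% lower, and 14.1% and 60.7%. *Adgre4*, an adhesion receptor of these cells, stood at 0.741 and 0.927 FPKM in WT, 19.4 and 23.7 FPKM in Tnfr1-/- and 35.1 and 60.3 FPKM in Tnfr2-/- MDSCs. *Fabp4*, a fatty acid carrier, stood at 369 and 340 FPKM in WT and between 0.732 and 1.73 FPKM in the knockouts. *Ear2*, an eosinophil-associated ribonuclease, and *Cd36*, a scavenger receptor, were also lower in both knockouts. Limma called no gene of the list different between the knockouts, with 3 at an unadjusted p under 0.05. With median-ratio scaling it called 1, *Cx3cr1*, higher in Tnfr2-/- than in Tnfr1-/- MDSCs (limma adjusted p = 0.0334).

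Below CCR2, 13 of 25 listed genes of its signalling path, which runs through Gi proteins, phospholipase C and Rac, were in the table. In Tnfr2-/- against WT 5 were higher and 6 lower, beside 13.6% and 57.1% of all listed genes. In Tnfr1-/- against WT 3 were higher and 6 lower, beside 14.1% and 60.7%. With median-ratio scaling 7 were higher and none lower in both comparisons. The scaled shares of all listed genes were 21.8% higher and 21% lower in Tnfr2-/-, and 23.3% and 22.1% in Tnfr1-/- MDSCs. *Rac2*, the Rac GTPase of blood cells, stood at 109 and 106 FPKM in WT, 322 and 294 FPKM in Tnfr1-/- and 326 and 234 FPKM in Tnfr2-/- MDSCs. *Grk6*, a kinase that switches off chemokine receptors, stood at 24.8 and 25.0 FPKM in WT and between 58.2 and 76.3 FPKM in the knockouts. *Nup85*, which codes for a nuclear pore protein also known to bind CCR2, and *Plcb3*, which codes for a phospholipase C, fell by 1.23 and 1.46 in Tnfr2-/- MDSCs on the log2 scale and were not called after scaling.

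Of the genes for adhesion and exit from vessels, 11 of 16 were in the table. In each knockout 6 were higher and 5 lower than in WT. Of all listed genes, 13.6% were called higher and 57.1% lower in Tnfr2-/-, and 14.1% and 60.7% in Tnfr1-/- MDSCs. *Itga4*, the alpha chain of the integrin VLA-4, stood at 6.46 and 5.99 FPKM in WT, 57.8 and 67.9 FPKM in Tnfr1-/- and 79.5 and 90.6 FPKM in Tnfr2-/- MDSCs. *Itgal*, the alpha chain of LFA-1, stood at 46.7 and 49.6 FPKM in WT, 102 and 133 FPKM in Tnfr1-/- and 155 and 146 FPKM in Tnfr2-/- MDSCs. *Cd99l2*, an adhesion protein of vessel walls and leukocytes, fell by 1.81 in Tnfr2-/- MDSCs on the log2 scale (SE 0.13, limma adjusted p = 0.000197). With median-ratio scaling 6 were higher and 1 lower in Tnfr2-/- MDSCs, and 6 higher and 2 lower in Tnfr1-/- MDSCs. The scaled shares of all listed genes were 21.8% higher and 21% lower, and 23.3% and 22.1%.

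Of the transcription factors known in monocytes, 10 of 22 were in the table. Against WT, 3 were higher and 6 lower in Tnfr2-/-, and 3 higher and 7 lower in Tnfr1-/- MDSCs. Over all listed genes the shares were 13.6% higher and 57.1% lower in Tnfr2-/-, and 14.1% and 60.7% in Tnfr1-/- MDSCs. The lower counts lay near these shares, so nothing is read from them. With scaling the counts were 3 higher and 2 lower, and 3 higher and 4 lower. The scaled shares of all listed genes were 21.8% and 21%, and 23.3% and 22.1%. *Klf2*, a factor that keeps monocytes and lymphocytes quiescent, stood at 12.2 and 10.01 FPKM in WT, 226 and 335 FPKM in Tnfr1-/- and 269 and 363 FPKM in Tnfr2-/- MDSCs. *Egr2*, a factor of macrophage activation, had the reverse pattern, with 53.1 and 52.2 FPKM in WT and between 0.569 and 1.66 FPKM in the knockouts. *Cebpa*, which drives granulocyte and monocyte formation, was at 110 and 115 FPKM in WT, 15.3 and 17.5 FPKM in Tnfr1-/- and 34.0 and 33.1 FPKM in Tnfr2-/- MDSCs, and was the 1 factor called higher in Tnfr2-/- than in Tnfr1-/- MDSCs (log2 difference 0.99, SE 0.09, limma adjusted p = 0.0277). That call was lost in every fit with a sample left out other than that without Tnfr2-/- replicate 1, with limma adjusted p between 0.0707 and 0.123.

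By pattern over the 6 samples, the listed genes most like *Ly6c1* and those most like *Ccr2* were different sets. Likeness was the root mean square difference of log2(FPKM + 1), centred on each gene's mean, among the 6727 genes with a mean of at least 1 FPKM. Near *Ly6c1* were *Evi2b* (0.479), *Slfn4* (0.631), *Ctse* (0.682) and *Mmp9* (0.689). *Evi2b* was listed at 0 in both WT samples and stood between 62.7 and 97.1 FPKM in the knockouts. For *Ccr2* the nearest were *Arhgef37* (0.141), *Lst1* (0.19), *Gm9733* (0.22), *Atp1b1* (0.259) and *F13a1* (0.327). *Arhgef37* stood at 0.486 and 0.525 FPKM in WT, 8.37 and 11.5 FPKM in Tnfr1-/- and 19.9 and 23.7 FPKM in Tnfr2-/- MDSCs. A difference of at most 0.5 was reached by 1 gene for *Ly6c1* and 28 genes for *Ccr2*, and *Ly6c1* and *Ccr2* were 1.74 apart. The 6 samples share their genotypes, so such likeness is set mostly by the differences between groups.

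Markers of other cells differed between the same groups of samples. All 4 of the 20 neutrophil markers in the table were higher in both knockouts. Of all listed genes, 13.6% were called higher in Tnfr2-/- and 14.1% in Tnfr1-/- MDSCs. The summed level of the 4 markers was 40.0 and 32.8 FPKM in WT, 3450 and 3070 FPKM in Tnfr1-/- and 2730 and 1730 FPKM in Tnfr2-/- MDSCs. *Retnlg*, a resistin-like protein of neutrophils, stood at 2.30 and 2.13 FPKM in WT, 2364 and 1961 FPKM in Tnfr1-/- and 1649 and 1049 FPKM in Tnfr2-/- MDSCs. *Csf3r*, the receptor of G-CSF, stood at 9.99 and 8.07 FPKM in WT and between 286 and 454 FPKM in the knockouts. The highest value of each of the 4 markers lay in Tnfr1-/- MDSCs, whereas *Ly6c1* and *Ccr2* had theirs in Tnfr2-/- MDSCs. The knockout samples overlapped for *Csf3r* and *Mmp9*. For *Ly6c1* the gap between the knockouts was smaller than the distance between the 2 Tnfr2-/- samples. *Mmp9*, 1 of the 4 markers, was also among the genes nearest to *Ly6c1* given above. Limma called none of the 4 markers different between the knockouts, with 2 at an unadjusted p under 0.05.

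Of 16 red pulp macrophage markers, 15 were in the table, and 1 was higher and 14 were lower in each knockout than in WT. The shares of all listed genes were 13.6% higher and 57.1% lower in Tnfr2-/-, and 14.1% and 60.7% in Tnfr1-/- MDSCs. With median-ratio scaling 1 was higher and 12 lower in Tnfr2-/-, and 1 higher and 11 lower in Tnfr1-/- MDSCs. The scaled shares of all listed genes were 21.8% higher and 21% lower, and 23.3% and 22.1%. *Cd163*, *Spic* and *Hmox1* were named after their values were seen. *Cd163* was the 1 that rose, and *Spic* and *Hmox1* were not called after scaling. The summed level of these 15 markers was 3530 and 3670 FPKM in WT, 264 and 304 FPKM in Tnfr1-/- and 345 and 291 FPKM in Tnfr2-/- MDSCs. *Marco*, a scavenger receptor of marginal zone macrophages, stood at 409 and 372 FPKM in WT and between 0.450 and 0.854 FPKM in the knockouts. *C1qc*, a complement component made by macrophages, stood at 551 and 583 FPKM in WT and between 23.6 and 32.9 FPKM in the knockouts. The 5 of 10 B cell markers in the table were all higher in both knockouts, with sums of 46.6 and 46.9 FPKM in WT, 388 and 324 FPKM in Tnfr1-/- and 169 and 303 FPKM in Tnfr2-/- MDSCs.

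Of the markers of the purity check, *Ptprc*, the gene of CD45, stood at 98.2 and 105 FPKM in WT, 229 and 271 FPKM in Tnfr1-/- and 267 and 237 FPKM in Tnfr2-/- MDSCs. *Itgam*, *Ly6g* and *Ly6c2* were not among the listed genes, so *Ly6c1* is the only gene of the Gr1 antigens with values. The samples labelled WT were nearly without *Ly6c1*, with low *Retnlg* and *Csf3r* and high *Marco* and *C1qc*. The summed level of the 16 inflammatory monocyte genes was highest in WT, at 31600 and 33700 FPKM. Of this, *Lyz2* alone held 23647 and 25540 FPKM. These 16 genes did not move together, with 8 called higher and 7 lower in Tnfr2-/- than in WT MDSCs. Without values of *Itgam*, *Ly6g* and *Ly6c2*, the MDSC label of the WT samples cannot be judged here. The part of other cells in the levels of *Ly6c1* and *Ccr2* was not tested.

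**Figure D4:**
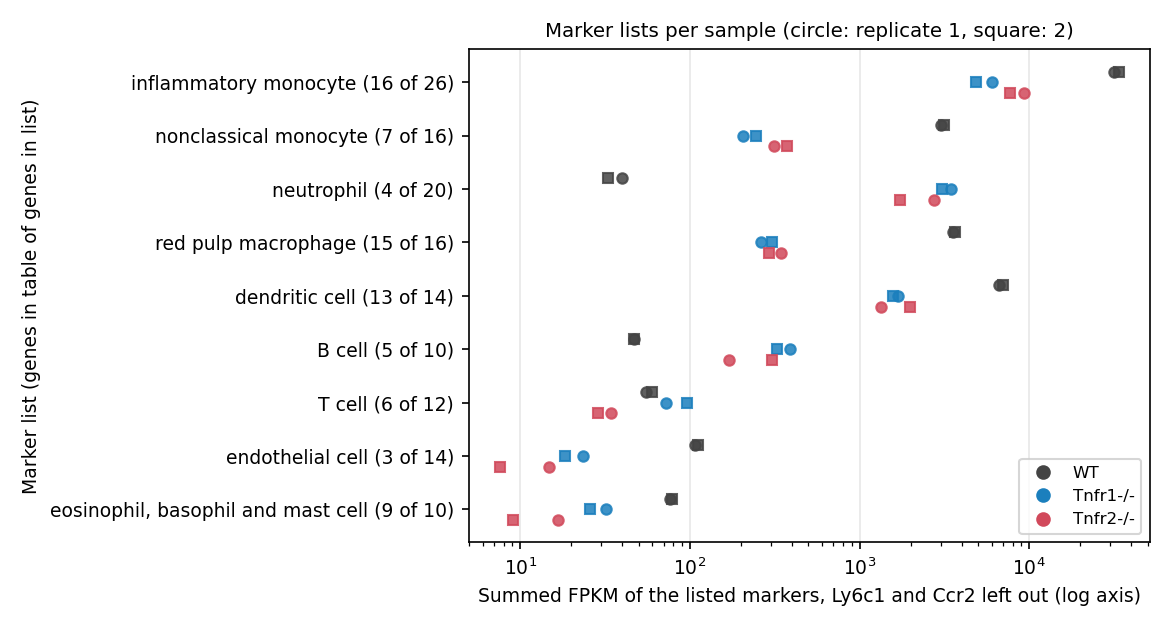
Summed FPKM of the listed markers of 9 cell types in each sample on a log axis, with colour for genotype, a circle for replicate 1 and a square for replicate 2, and the number of markers in the table beside each name. Neutrophil markers sum to 40.0 and 32.8 FPKM in WT and to 1730 FPKM or more in the knockouts, while red pulp macrophage markers sum to 3530 and 3670 FPKM in WT and to 345 FPKM or less in the knockouts.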

How the data were processed

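The authors sequenced single-end reads of 50 bases from SMARTer mRNA libraries, and deposited FPKM values for 8191 genes in 6 samples with a p-value per gene. Per the labels, FastQC, edgeR and the build mm10 were used, and the aligner, the annotation and the tool behind the FPKM values are not given in the sources used here. A one-way ANOVA of FPKM by genotype gave the deposited p-value within 1% for all 8191 genes, and the largest is 0.05. It was used for nothing else. Samples were grouped by the labels.

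FPKM values were used as log2(FPKM + 1) in limma 3.58.1 (R 4.3.3; eBayes with trend, 1 model of 6 samples, two-sided). The edgeR test of the authors needs counts and was not run. Other steps used Python 3.11.15, NumPy 2.4.6, pandas 2.3.3, SciPy 1.17.1 and matplotlib 3.10.9. The fit was checked on simulated data. The smallest two-sided p of an exact test of 2 against 2 samples is 0.333. Read depth is unknown, so no counting interval is given, and whether the 2 experiments share reagents or days is not known, so p-values measure only the spread between these samples. *Ly6c1*, *Ccr2* and the 19 gene lists, which can share genes, were chosen with earlier results of these data known. From each list the genes named were all in the table where at most 5, otherwise up to 4 with the largest called change in Tnfr2-/- against WT and up to 2 called between the knockouts, beside the 5 most alike genes and the neighbours within 250 kb. Alternatives were a pseudocount of 0.1, minimum means of 1 and 5 FPKM, a fit of the compared groups alone, a replicate block, eBayes without trend, median-ratio or quantile scaling, no fold threshold or one of 2, and each sample left out. Some genes that these rules name are not reported here.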

Additional observations from a re-analysis of the deposited data

How the results depend on the processing

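*Ly6c1* and *Ccr2* kept the direction of every difference under all the alternatives run, but the size of the difference from WT depended on the scale. On the log2 scale *Ly6c1* differed from WT by 9.48 in Tnfr2-/- and 8.89 in Tnfr1-/- MDSCs with a pseudocount of 0.1, by 7.38 and 6.94 with median-ratio size factors, and by 7.38 and 7.01 with quantile normalization. *Ccr2* differed from WT by 4.68 and 3.59 with median-ratio size factors and by 4.58 and 3.49 with quantile normalization. With each sample left out in turn, *Ly6c1* ranged from 6.78 to 7.33 and from 6.41 to 6.54 against WT, and from 0.31 to 0.86 between the knockouts. *Ccr2* ranged from 3.65 to 3.85, from 2.34 to 2.68 and from 1.07 to 1.40.

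The count of genes called different by limma in Tnfr2-/- against WT (5794) was 3823 with a mean of at least 5 FPKM, 3504 with median-ratio size factors (1787 higher, 1717 lower), 3535 with quantile normalization and 3686 with a fold over 2. In Tnfr1-/- against WT (6124) it was 4059, 3722 (1908 higher, 1814 lower) and 3796 under the first 3 of these. Between the knockouts (119) it was 217 with a mean of at least 1 FPKM, 15 without trend, 208 with median-ratio size factors, 238 with quantile normalization, 218 without a fold threshold, 49 with a fold over 2, and 0 with only the 2 groups in the limma fit, where 1436 genes had an unadjusted p under 0.05. It ranged from 2 to 662 with a sample left out, the highest without Tnfr2-/- replicate 1. The 3 monocyte genes called between the knockouts became 6 with either minimum of 1 or 5 FPKM, 5 with quantile normalization, 0 in limma without trend or with only the 2 groups (8 at an unadjusted p under 0.05), and 0 to 7 with a sample left out. The counts of monocyte genes called against WT stayed within 1.5 times under all the alternatives.

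The labels do not say whether a replicate number marks 1 of the 2 experiments, and the deviations of same-numbered samples from their group means correlated at 0.022, 0.03 and 0.046, so the main model holds no block. With a replicate block limma called 7 genes and 0 monocyte genes between the knockouts. Where a sample is left out, the lone sample of its genotype is assumed to vary like the other groups. What the depth limits is unknown, and the *Ly6c1* level in WT, under 1 FPKM, is the value on which the pseudocount weighs most.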

Other observations

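The counts in this paragraph stand beside 13.6% higher and 57.1% lower of all listed genes in Tnfr2-/- against WT. The shares were 14.1% and 60.7% in Tnfr1-/- against WT, and 0.842% and 0.61% between the knockouts. Of the marker lists not described above, 13 of 14 dendritic cell genes were in the table. Of these 13 genes, 2 were higher and 8 lower in Tnfr2-/- than in WT MDSCs. Their summed level was 6640 and 6980 FPKM in WT, 1680 and 1570 FPKM in Tnfr1-/- and 1330 and 1990 FPKM in Tnfr2-/- MDSCs, with *H2-Ab1*, a chain of MHC class II, at 1174 and 1261 FPKM in WT and between 119 and 213 FPKM in the knockouts. Of 10 genes of eosinophils, basophils and mast cells, 9 were in the table, and 1 (*Ccr3*) was higher and 8 were lower in Tnfr2-/- than in WT MDSCs. The 6 of 12 T cell genes in the table were split, with 1 higher and 2 lower in Tnfr2-/-, 5 higher and 1 lower in Tnfr1-/- against WT, and 2 lower in Tnfr2-/- than in Tnfr1-/- MDSCs. *Il7r*, a cytokine receptor of T cells, stood at 18.8 and 18.8 FPKM in WT, 26.5 and 40.4 FPKM in Tnfr1-/- and 7.74 and 4.69 FPKM in Tnfr2-/- MDSCs, and its call between the knockouts was lost in limma fits without WT replicate 1 or 2 (adjusted p = 0.15 each), without Tnfr1-/- replicate 1 or 2 (0.109 and 0.148) or without Tnfr2-/- replicate 2 (0.079). Endothelial cells also express *Ly6c1*, and of their 14 markers 3 were in the table, with sums of 107 and 112 FPKM in WT, 23.6 and 18.4 FPKM in Tnfr1-/- and 14.8 and 7.56 FPKM in Tnfr2-/- MDSCs, most of which in WT is *Ly6a* (94.6 and 100.1 FPKM). Of the 3 of 10 plasmacytoid dendritic cell genes in the table, 2 (*Pacsin1* and *Runx2*) were higher and 1 (*Bst2*) was lower in Tnfr2-/- than in WT MDSCs, with *Bst2* at 249.9 and 262.5 FPKM in WT and between 30.02 and 64.6 FPKM in the knockouts. *Slc4a1*, 1 of 10 erythroid genes and the only one in the table, was listed at 0 in WT and stood between 0.409 and 2.30 FPKM in the knockouts, and none of 10 natural killer cell genes was in the table.

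A level under 1 FPKM in both WT samples and over 50 FPKM in all 4 knockout samples was found in 3 of the 8191 listed genes, *Evi2b*, *Ly6c1* and *Steap4*, with 1324 genes (16.2%) under 1 FPKM in both WT samples. *Steap4*, named after its values were seen, stood at 0.240 and 0.0859 FPKM in WT, 128 and 198 FPKM in Tnfr1-/- and 117 and 59.1 FPKM in Tnfr2-/- MDSCs.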
